A study of Homo sapiens with 6 samples.

Results

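The genes described here encode the sialyl-, fucosyl-, galactosyl-, N-acetylglucosaminyl- (GlcNAc-) and N-acetylgalactosaminyl- (GalNAc-) transferases that build and cap the sugar chains of proteins and lipids. They were chosen by symbol (ST3GAL, ST6GAL including ST6GALNAC, ST8SIA, FUT, B3GALT, B4GALT, B3GNT, MGAT and GALNT genes), from probe sets that name exactly 1 gene, with 1 probe set per gene, the one of highest mean over the 6 arrays. This gave 77 genes, from 88 probe sets, of 18417 genes measured. Of the 77, 75 are protein-coding, MGAT4EP is a pseudogene and B3GALT5-AS1 is a long non-coding RNA that carries the symbol of its neighbour. The cells were A375, an established human melanoma line that carries BRAF V600E, the mutant kinase that vemurafenib inhibits. In 1 group, cells were given 10 µM vemurafenib for 24 h (3 arrays), and in the other, 0.1% DMSO vehicle for the same time (3 arrays). Within a group each replicate was grown from its own stock of cells on its own day, so replicates are independent cultures of 1 cell line, and all results hold for this line, dose and time only.

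Glycosyltransferases sit mainly in the Golgi apparatus, and each moves 1 sugar from an activated sugar nucleotide to a defined position on a growing chain. GALNT enzymes start mucin-type O-glycans by attaching GalNAc to serine or threonine, MGAT enzymes set the branches of N-glycans, B3GNT and galactosyltransferase enzymes lengthen the chains, and fucosyl- and sialyltransferases decorate or cap them. In melanoma these chains are studied for their part in cell adhesion, growth factor receptor turnover and recognition by galectins and immune lectins, and gangliosides, which are sialic acid-bearing glycolipids, are known melanoma antigens.

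The drug's effect on its pathway was checked first. DUSP6, a phosphatase gene that is transcribed in response to ERK signalling, averaged 7.00 ± 0.03 log2 units with vemurafenib, against 11.21 ± 0.04 with vehicle (SD, n = 3 each), an 18.5-fold lower level. SPRY4, another ERK target, averaged 6.69 ± 0.17 with vemurafenib and 10.44 ± 0.14 with vehicle. A group mean is called dim here when it is under 6.87, the upper edge of the dimmest 25% of genes. Of 9 listed melanoma markers, 8 were measured. MITF (10.91 with vemurafenib, 10.17 with vehicle), SOX10, S100B and MCAM were above that edge, whereas the pigment genes PMEL, TYR, TYRP1 and MLANA were dim in both groups, at means of 5.17 to 6.72. Among 10 markers of other cell types, the fibroblast genes LUM (9.70 with vemurafenib, 8.58 with vehicle) and DCN (6.92 with vemurafenib, 5.46 with vehicle) were higher with the drug. EPCAM, CDH1, PECAM1, CDH5, PTPRC and CD14 were dim in both groups. Of these dim genes, PECAM1 (log2 change -0.33, adjusted p = 0.0153) and CD14 (-0.32, adjusted p = 0.00321) were called lower with the drug (limma). The keratinocyte genes KRT14 (8.95 with vemurafenib, 8.68 with vehicle, adjusted p = 0.0501) and KRT5 (7.03 with vemurafenib, 6.93 with vehicle) were not dim and did not pass the test. The part of these markers in the results below was not tested. In bulk RNA, fewer cells that express a gene and less of its RNA per cell cannot be told apart.

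Of the 77 transferase genes, 15 were higher and 15 were lower with vemurafenib, and 47 did not pass the test (limma, adjusted p threshold 0.05 over all 18417 genes). The drug moved much of the transcriptome, with 45.5% of all genes called (23.2% higher, 22.2% lower), so the 39.0% of transferase genes called lies below the background share. The members' median log2 change was -0.03, beside -0.05 over all genes. A called change of at least 0.58 on the log2 scale, about 1.5-fold, was found for 13 of the 77 members (8 higher, 5 lower). Among all genes it was found for 2945 of 18417 (16.0%). At least 2-fold changes were found for 5 of the 77 members (ST6GALNAC2, ST8SIA4, B3GALT2 and GALNT5 higher, GALNT14 lower), against 1048 of 18417 genes (5.69%). The 3 vemurafenib arrays did not overlap the 3 vehicle arrays for 39 of the 77 members, 19 above and 20 below. This held for 10200 of 18417 genes (55.4%). With each array centred on its median over the 18417 genes (8.31 to 8.40), the members called were 12 higher and 23 lower, and those of all genes were 3682 higher and 5630 lower instead of 4281 and 4090. That centring lowered the median log2 change of all genes by 0.06 to -0.11, and later mentions of centring are to this setting. Centring on the medians of all probe sets, chosen after seeing the data, gave 14 members higher and 15 lower, so the split depends on which median is used.

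**Figure D1:**
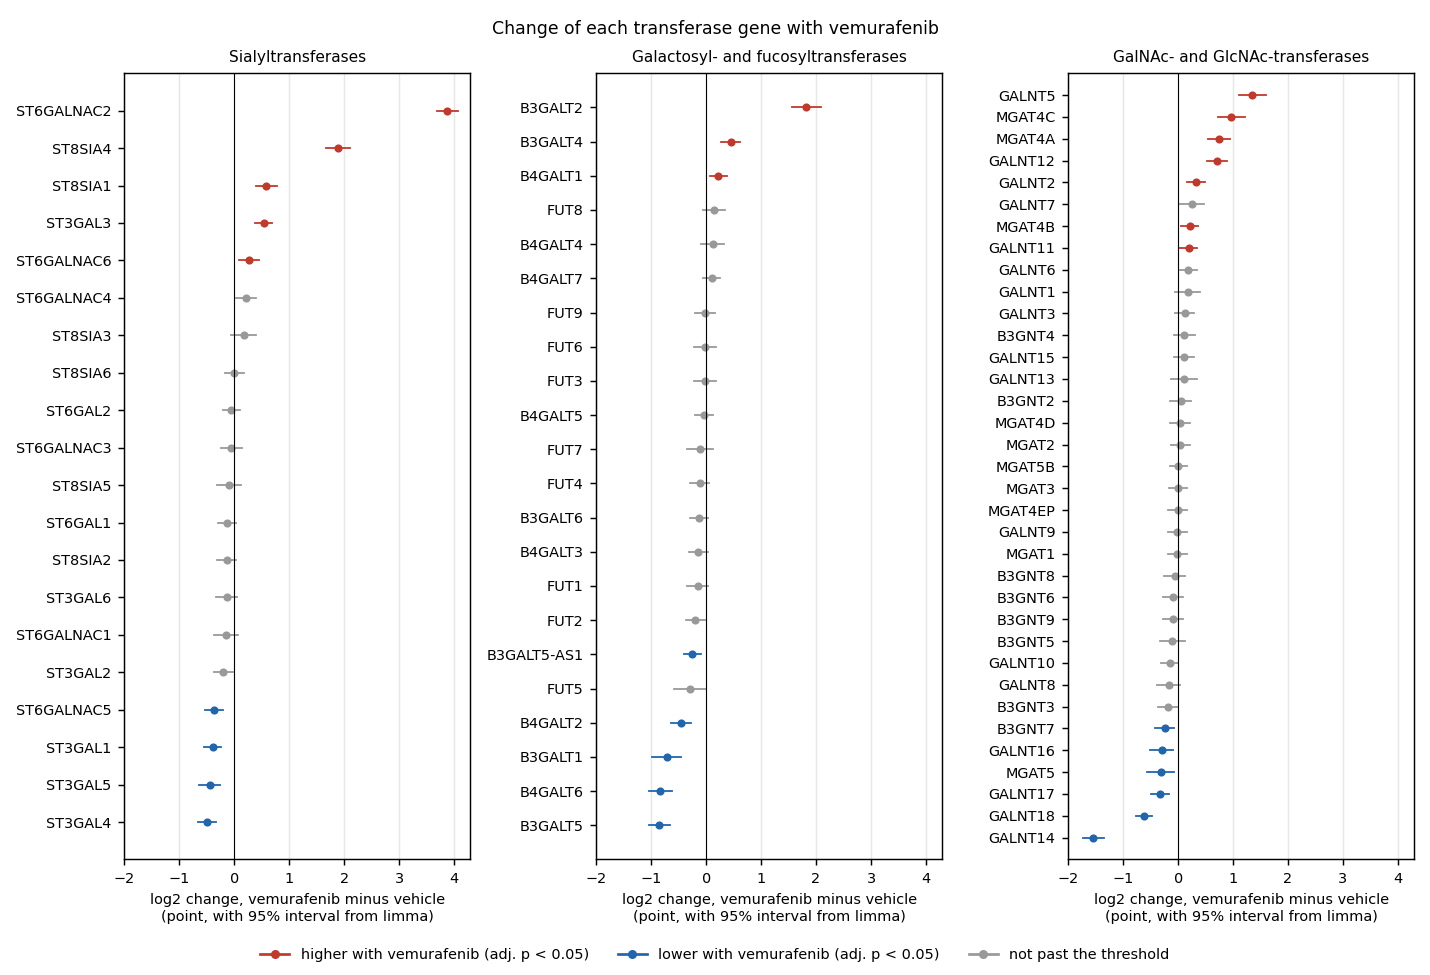
Log2 change of each of the 77 transferase genes, vemurafenib minus vehicle, with its 95% interval from limma; genes called higher are red, genes called lower are blue and the others are grey. ST6GALNAC2 stands farthest from 0 at 3.88, followed by ST8SIA4 at 1.89 and B3GALT2 at 1.82, with GALNT14 lowest at -1.55, while all 9 fucosyltransferases are grey.

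Among the 20 sialyltransferases, 5 were higher, 4 were lower and 11 did not pass the test (45.0% called, against 45.5% of all genes). Their median log2 change was -0.08. ST6GALNAC2, which adds sialic acid to the GalNAc of O-glycans, had the largest change of all members. Its log2 level was 11.45, 11.46 and 11.34 on the vemurafenib arrays, against 7.56, 7.38 and 7.68 on the vehicle arrays. Every vemurafenib array lay more than 3 log2 units above every vehicle array. The log2 change was 3.88 (SE 0.09, 95% interval 3.68 to 4.07), a 14.7-fold higher level with an adjusted p of 2.23e-10 by limma. Both probe sets that name ST6GALNAC2 hold identical values, so the second gives no separate measurement.

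ST8SIA4, 1 of the polysialyltransferases, builds the long sialic acid chains known from the neural cell adhesion molecule. Its log2 level was 11.69, 11.70 and 11.33 with vemurafenib, against 9.64, 9.71 and 9.69 with vehicle. The groups were well apart, and the spread was wider with the drug, where replicate 3 was the lowest. The level was 3.71-fold higher (log2 change 1.89, SE 0.10, adjusted p = 5.58e-08, limma). The other polysialyltransferase, ST8SIA2, was dim in both groups and did not pass the test (-0.14, adjusted p = 0.162).

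ST8SIA1, the GD3 synthase, makes the disialylated ganglioside GD3 known from melanoma. Its log2 level was 7.34, 7.19 and 7.17 with vemurafenib, against 6.47, 6.75 and 6.72 with vehicle, where the mean was dim. These groups did not overlap, and the level was 1.5-fold higher (log2 change 0.58, SE 0.09, adjusted p = 0.000255, limma). The gene's other probe set, dim in all arrays, gave a log2 change of -0.02 (adjusted p = 0.880 with every probe set fitted), so the rise rests on 1 of its 2 probe sets.

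The ST3GAL genes, whose enzymes link sialic acid to galactose, moved in both directions, with 1 higher, 3 lower and 2 uncalled. The share called was 66.7%, against 45.5% of all genes. ST3GAL3, which acts on N-glycans and glycolipids, was the member that rose (9.21 ± 0.05 with vemurafenib, 8.67 ± 0.06 with vehicle, log2 change 0.54). ST3GAL4, which acts mainly on N-glycans, was lower by a log2 change of -0.50 (9.47 ± 0.08 with vemurafenib, 9.96 ± 0.04 with vehicle). ST3GAL5, the GM3 synthase of ganglioside synthesis, changed by -0.45, and ST3GAL1, which caps O-glycans, changed by -0.40. ST3GAL2 gave -0.20 (adjusted p = 0.0629, limma), and was called lower without vemurafenib replicate 1 (adjusted p = 0.0426) and with arrays centred on their medians (adjusted p = 0.0155).

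ST6GAL1, the main enzyme that adds terminal sialic acid to N-glycans, averaged 10.74 ± 0.05 with vemurafenib and 10.87 ± 0.11 with vehicle, with an interval of the log2 change that reaches at most 0.305 from 0 for either ST6GAL gene. It did not pass the test (-0.13, adjusted p = 0.188, limma), and only centring of the arrays on their medians brought it past the threshold (-0.19, adjusted p = 0.0497). In the ST6GALNAC group, ST6GALNAC5, which acts on gangliosides, was lower by a log2 change of -0.37 (7.80 ± 0.08 with vemurafenib, 8.16 ± 0.08 with vehicle). ST6GALNAC6, another ganglioside enzyme, was higher by 0.27 (adjusted p = 0.0216, limma). That call was lost without vehicle replicate 3, vemurafenib replicate 1 or vemurafenib replicate 3 (adjusted p 0.0588 to 0.095). ST6GALNAC1, which makes the sialyl-Tn antigen, gave -0.15 and did not pass.

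**Figure D2:**
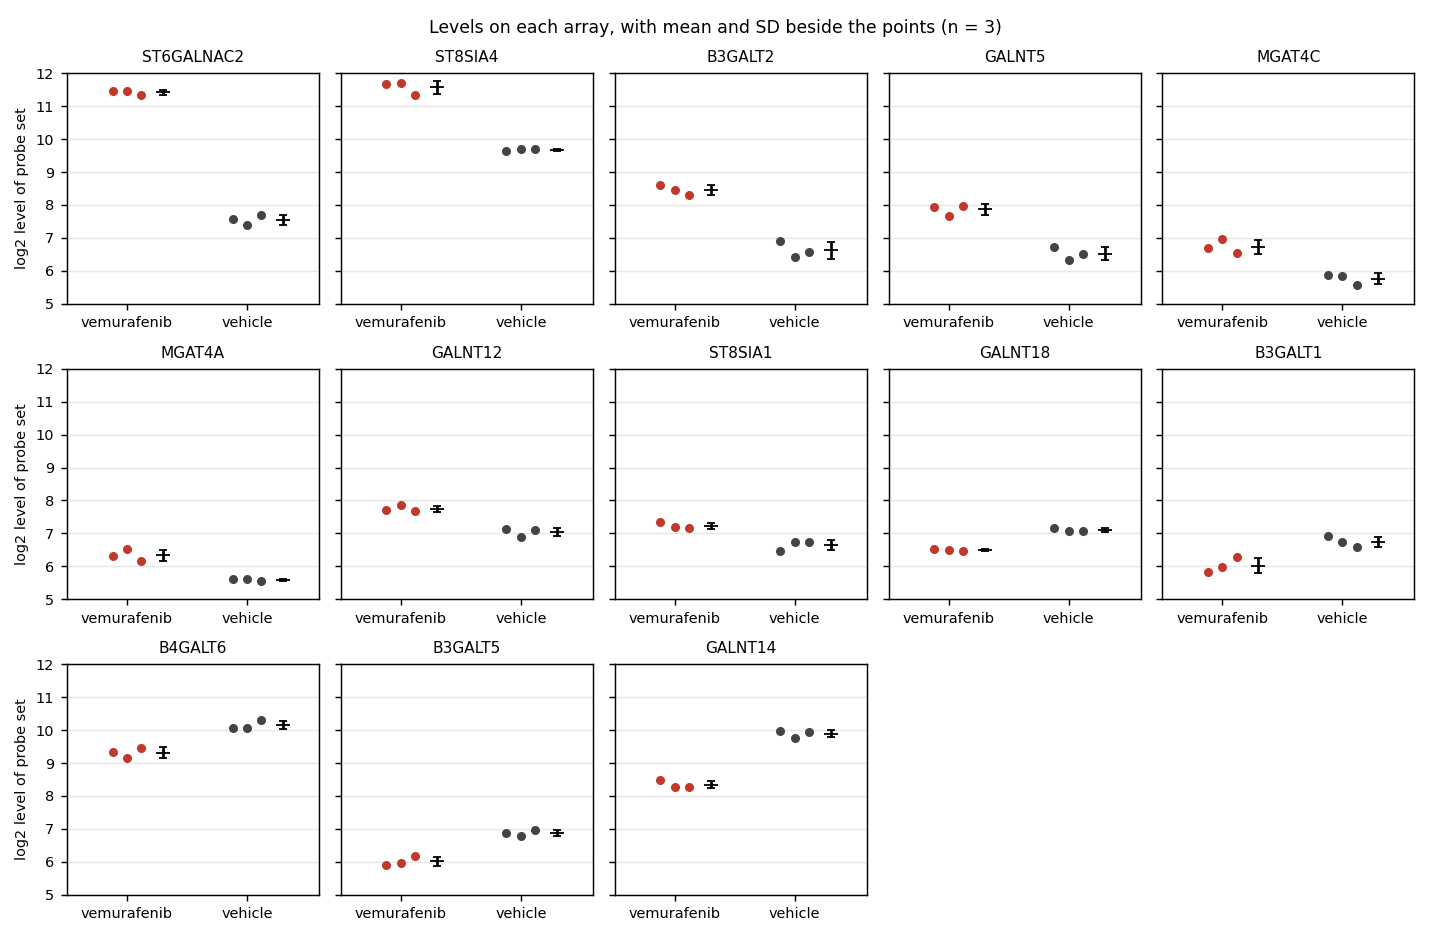
Log2 level of the probe set on each array for the 13 called members with a log2 change of at least 0.58, with vemurafenib (red) left of vehicle (grey) and the mean with SD beside the points (n = 3 each). The groups overlap for none of these 13 genes, which were picked for being called. Groups were also apart for 8210 of all 8371 called genes and for 55.4% of all genes. The gap for ST6GALNAC2, 11.42 against 7.54, is wider than for any other member.

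None of the 9 fucosyltransferases passed the test (limma), beside 45.5% of all genes. An unadjusted p under 0.05 was found for 2 of them (FUT2 and FUT5), beside 52.4% of all genes. Their median log2 change was -0.11. FUT8, which adds the core fucose of N-glycans, averaged 9.90 ± 0.02 with vemurafenib and 9.76 ± 0.17 with vehicle (0.14, adjusted p = 0.22). FUT4, a maker of Lewis-type fucose, gave -0.12, and FUT9, of the same kind, was dim at 4.38 with vemurafenib and 4.39 with vehicle. FUT1, which makes the H antigen, gave -0.15. FUT3, FUT5 and FUT6 are near-identical genes whose probes may cross-hybridise, so their values are uncertain as measures of single genes. FUT2, FUT3 and FUT7 were also dim in both groups, where a change may be understated. For the 5 others the intervals reach at most 0.588 from 0 on the log2 scale. FUT2 was called lower without vehicle replicate 1 (adjusted p = 0.0453), FUT5 without vemurafenib replicate 3 (adjusted p = 0.0197), and both with arrays centred on their medians (adjusted p = 0.0243 for FUT2 and 0.0457 for FUT5).

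Of the 13 galactosyltransferase genes, counted with the non-coding B3GALT5-AS1, 3 were higher and 5 were lower. B3GALT genes made up 5 of these 8, with B3GALT5-AS1 among the lower ones (45.5% of all genes were called). B3GALT2, which adds galactose to terminal GlcNAc, had a log2 level of 8.61, 8.44 and 8.31 with vemurafenib, against 6.91, 6.41 and 6.56 with vehicle. The vehicle mean was dim, and the vemurafenib arrays were all clearly above it. The level was 3.54-fold higher (log2 change 1.82, SE 0.12, adjusted p = 3.75e-07, limma).

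B3GALT5, whose enzyme also galactosylates GlcNAc and makes precursors of sialyl Lewis a, went the other way, at 5.91, 5.97 and 6.17 with vemurafenib, against 6.88, 6.78 and 6.96 with vehicle. The vemurafenib arrays were all below the vehicle arrays, at a dim mean. The log2 change was -0.86 (SE 0.09, adjusted p = 1.01e-05, limma). The non-coding B3GALT5-AS1 was lower by -0.25, and its call was lost without vehicle replicate 1 or vemurafenib replicate 1 (adjusted p 0.066 to 0.0737). The pair may overlap, and no source used here says whether strand was kept in labelling, so their signals may not be fully separate.

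B3GALT1, of the same activity, had 5.81, 5.98 and 6.28 with vemurafenib, against 6.91, 6.73 and 6.60 with vehicle. Its groups did not overlap, and both means were dim (log2 change -0.72, SE 0.12, adjusted p = 0.000392, limma). B3GALT4, which extends gangliosides with galactose, was higher by 0.44, from 3 probe sets with identical values. Without the dimmest 25% of genes, 10 of the 13 were tested and 2 were called lower, since B3GALT1, B3GALT5 and B3GALT5-AS1 drop out.

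Among B4GALT genes, B4GALT6 and B4GALT2 were lower and B4GALT1 was higher. B4GALT6, 1 of a pair of lactosylceramide synthases, had 9.34, 9.14 and 9.46 with vemurafenib, against 10.08, 10.08 and 10.29 with vehicle. No array was dim and the groups did not overlap (log2 change -0.84, SE 0.10, 1.79-fold lower, adjusted p = 2.71e-05, limma). B4GALT5, the other lactosylceramide synthase, averaged 12.18 ± 0.04 with vemurafenib and 12.22 ± 0.09 with vehicle and did not pass (adjusted p = 0.671). B4GALT2, an N-glycan galactosyltransferase, changed by -0.46 (adjusted p = 0.000599). B4GALT1, the main one, changed by 0.22 (adjusted p = 0.0225, limma), a call lost without vehicle replicates 1 or 3 or vemurafenib replicates 1 or 2 (adjusted p 0.0599 to 0.0739) and with arrays centred on their medians (adjusted p = 0.075). B4GALT7 and B3GALT6, which build the linker of proteoglycans, gave 0.10 and -0.13 and did not pass. Only with arrays centred on their medians was B3GALT6 called lower (adjusted p = 0.0471, limma).

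The 18 GlcNAc-transferase genes held 3 that were higher and 2 that were lower (27.8% called, against 45.5% of all genes). The 3 higher ones are all MGAT4 genes, the family of the enzymes that add a further antenna to N-glycans. Not all MGAT4 genes rose. MGAT4D (0.03, adjusted p = 0.752) and the pseudogene MGAT4EP (-0.01, adjusted p = 0.955) did not pass the test (limma). MGAT4C, a family member of less settled activity, had 6.68, 6.96 and 6.54 with vemurafenib, against 5.87, 5.84 and 5.57 with vehicle. MGAT4A had 6.32, 6.52 and 6.17 with vemurafenib, against 5.60, 5.61 and 5.56 with vehicle. For both genes the groups were apart, yet both means were dim. The log2 changes were 0.97 (SE 0.11, adjusted p = 3.2e-05) for MGAT4C and 0.74 (SE 0.09, adjusted p = 3.96e-05) for MGAT4A by limma.

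MGAT4B, the broadly expressed gene of this family, averaged 10.30 ± 0.07 with vemurafenib and 10.09 ± 0.02 with vehicle. It was called higher (0.21, adjusted p = 0.0283, limma), but not without vehicle replicates 1 or 3 or vemurafenib replicates 1 or 2 (adjusted p 0.0588 to 0.101), nor with arrays centred on their medians (adjusted p = 0.0925). MGAT5, which makes the branch that galectins bind after its extension, had 9.02, 8.98 and 8.92 with vemurafenib, against 9.41, 9.00 and 9.48 with vehicle. Vehicle replicate 2 overlapped the vemurafenib arrays, and MGAT5 was the 1 called member with overlapping groups (-0.32, adjusted p = 0.0368, limma). The call was lost without vehicle replicates 1 or 3 or any single vemurafenib array (adjusted p 0.0592 to 0.138). MGAT1 and MGAT2, which open the first complex antennae, gave -0.02 and 0.03, and MGAT3, the enzyme of the bisecting GlcNAc, gave 0.00. None of these 3 passed the test.

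Of the 8 B3GNT genes, which extend chains with GlcNAc, B3GNT7 was called (12.5%, against 45.5% of all genes). It was lower (-0.25, adjusted p = 0.0205, limma), and not called without vehicle replicates 1 or 2 or vemurafenib replicates 1 or 2 (adjusted p 0.0529 to 0.0899). B3GNT2, the main polylactosamine synthase, gave 0.04 and did not pass. B3GNT3 gave -0.19 (adjusted p = 0.0898) and was called without vemurafenib replicate 3 (adjusted p = 0.0354) and with arrays centred on their medians (adjusted p = 0.0255).

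Among the 17 GALNT genes, 4 were higher and 4 were lower (47.1% called, against 45.5% of all genes). Their median log2 change was 0.11. GALNT5 had 7.94, 7.68 and 7.98 with vemurafenib, against 6.72, 6.32 and 6.50 with vehicle, where the mean was dim. The groups did not overlap (log2 change 1.35, SE 0.11, 2.55-fold higher, adjusted p = 1.83e-06, limma). GALNT12 had 7.70, 7.85 and 7.68 with vemurafenib, against 7.12, 6.90 and 7.09 with vehicle. Its groups did not overlap (0.71, SE 0.08, adjusted p = 3.5e-05, limma).

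GALNT14 showed the largest fall of all members. Its log2 level was 8.48, 8.28 and 8.28 with vemurafenib, against 9.98, 9.77 and 9.94 with vehicle. No array was dim, and the groups did not overlap (log2 change -1.55, SE 0.09, 2.93-fold lower, adjusted p = 9.98e-08, limma). GALNT18 had 6.51, 6.49 and 6.46 with vemurafenib, against 7.18, 7.09 and 7.07 with vehicle, and the vemurafenib mean was dim (-0.62, SE 0.07, adjusted p = 2.05e-05, limma).

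GALNT2, 1 of the broadly expressed starters of O-glycans, averaged 11.94 ± 0.09 with vemurafenib and 11.62 ± 0.03 with vehicle (0.32, adjusted p = 0.00379, limma), and GALNT1, another, gave 0.17 without passing (adjusted p = 0.19). GALNT1 was called without vemurafenib replicate 3 (adjusted p = 0.035). GALNT17 changed by -0.33, and its other probe set, which was dim, gave -0.06. GALNT11 (0.19, adjusted p = 0.0393) lost its call without vehicle replicates 1, 2 or 3 or vemurafenib replicates 1 or 2 (adjusted p 0.0702 to 0.105) and with arrays centred on their medians (adjusted p = 0.124). GALNT16 (-0.30, adjusted p = 0.0231, limma) lost it without vehicle replicates 1 or 2 or vemurafenib replicates 1 or 2 (adjusted p 0.0538 to 0.0928). GALNT7 gave 0.24 (adjusted p = 0.085) and was called without vemurafenib replicate 3 (adjusted p = 0.0181).

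Promoter windows are shown for the 2 largest rises and the largest fall that have an entry, as the start regions of the members that changed most. Each window is the 250 bases before the gene start in RefSeq (GRCh38.p14), printed 5′ to 3′ on the gene's strand. ST8SIA4 (chr5:100903283-100903532, minus strand) has 55.6% GC and 13 CpG, and B3GALT2 (chr1:193186614-193186863, minus strand) has 33.6% GC and 2 CpG. GALNT14 (chr2:31138441-31138690, minus strand) has 72.4% GC and 26 CpG, while the second of its 2 windows (chr2:31129641-31129890, not printed) has 45.2% GC and 2 CpG. The medians over all 35116 windows are 58.0% GC and 11 CpG. Capitals mark the E-box CACGTG.
ST8SIA4: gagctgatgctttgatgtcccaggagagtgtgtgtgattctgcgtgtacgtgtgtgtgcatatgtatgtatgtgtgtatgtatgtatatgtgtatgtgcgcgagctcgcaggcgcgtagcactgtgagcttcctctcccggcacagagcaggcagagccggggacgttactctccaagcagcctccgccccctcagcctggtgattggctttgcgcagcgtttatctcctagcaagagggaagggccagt
B3GALT2: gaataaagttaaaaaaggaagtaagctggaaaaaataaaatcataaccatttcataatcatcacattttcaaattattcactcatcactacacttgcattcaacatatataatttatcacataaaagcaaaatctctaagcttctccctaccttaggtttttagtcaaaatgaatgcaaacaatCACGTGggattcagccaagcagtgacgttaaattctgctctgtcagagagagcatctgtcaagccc
GALNT14: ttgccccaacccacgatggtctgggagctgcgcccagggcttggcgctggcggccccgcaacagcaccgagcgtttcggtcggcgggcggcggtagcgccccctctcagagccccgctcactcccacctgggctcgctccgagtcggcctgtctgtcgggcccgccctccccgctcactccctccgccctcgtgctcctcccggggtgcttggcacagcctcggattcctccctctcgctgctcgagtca

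The E-box is a hexamer that MITF and other basic helix-loop-helix factors can bind. Read on both strands, CACGTG is in 6.34% of all windows and 9.80% of 14239 genes with a window. The table held 57 of the 77 members, and 8 of the 13 with a log2 change of at least 0.58. The E-box was in 1 of 11 members called higher, 2 of 12 called lower and 4 of 34 uncalled ones. CATGTG, the core of the M-box, is in 9.42% of windows (9.82% of genes) and was in 5 uncalled members. The AP-1 motif TGANTCA is in 6.57% of windows (7.06% of genes) and was in 4 uncalled members. CCGGAAG, read by ETS factors, is in 8.52% of windows (14.3% of genes) and was in 1 member called lower and 3 uncalled. The FOXO motif GTAAACA is in 2.98% of windows (3.11% of genes) and was in 1 member called lower and 1 uncalled. A match shows only that these letters lie in the window.

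The genes that feed, share or undo the work of these enzymes were read from 6 lists of partner genes, of which 78 of 88 listed genes were measured. Over all 78, 29 were higher and 19 were lower (61.5% called, against 45.5% of all genes), with a median log2 change of 0.04. The share over all genes includes dim genes, and without the dimmest 50% of genes it was 64.7%. In that setting, 28 of the 55 partner genes tested were higher and 17 were lower.

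In the sugar nucleotide supply, 4 of 19 genes were higher and 8 were lower (63.2% called, against 45.5% of all genes). Without the dimmest 50% of genes, 4 of 18 tested were higher and 8 were lower, beside 64.7% of all genes tested. GNE, which catalyses the first steps of sialic acid synthesis, averaged 9.83 ± 0.10 with vemurafenib and 11.16 ± 0.08 with vehicle (log2 change -1.33, adjusted p = 1.56e-07, limma). UAP1, the last enzyme of UDP-GlcNAc synthesis, changed by -0.82. SLC35D2, a Golgi nucleotide sugar transporter, changed by 1.17, and GALT, of galactose use, by 1.04. The lower count fell to 5 without vehicle replicate 1, vehicle replicate 3 or vemurafenib replicate 1.

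Of 12 genes for glycan removal, 7 were higher and 1 was lower (66.7% called, against 45.5% of all genes), with a median of 0.47. NEU1, the lysosomal sialidase, averaged 10.64 ± 0.08 with vemurafenib and 9.51 ± 0.05 with vehicle (1.12, adjusted p = 3.34e-07, limma). MANBA, HEXA and GALC, lysosomal enzymes that remove mannose, hexosamine and galactose, changed by 0.91, 0.81 and 0.78. GLA, the lysosomal alpha-galactosidase, was the 1 gene called lower, at -0.69, and with arrays centred on their medians 4 genes were called lower. Without vehicle replicate 1 or 3 that count was 2, and without vemurafenib replicate 3 it was 3.

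For N-glycan transfer and trimming, 6 of 10 genes were higher and 2 were lower (80.0% called, against 45.5% of all genes). MAN2A2, a Golgi mannosidase, changed by 0.94, MOGS, the first trimming glucosidase, by 0.33, and MAN1B1, a mannosidase of the early secretory pathway, by 0.29. STT3B, a catalytic subunit of the oligosaccharyltransferase, changed by -0.29. The higher count was 3 without vehicle replicate 2 or vemurafenib replicate 2 and with arrays centred on their medians. The lower count was 1 without vehicle replicate 1.

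Of the other glycosyltransferases, 5 of 23 were higher and 6 were lower (47.8% called, against 45.5% of all genes). They were led by GCNT2, which makes the branched I antigen, at 0.68, and POFUT1, which adds fucose to Notch repeats, at -0.56. B3GLCT, which adds glucose to O-fucose, changed by -0.51, and B4GALNT3, which adds GalNAc to terminal GlcNAc, by 0.46. Galectins, which bind galactose-bearing chains, held 3 of 7 genes that were higher and 2 that were lower (71.4% called). LGALS3 changed by 1.12 (10.03 ± 0.14 with vemurafenib, 8.91 ± 0.07 with vehicle), LGALS8 by 0.34, LGALS4 by -0.29 and LGALS1 by 0.23. The LGALS1 call was lost without vehicle replicate 3 or vemurafenib replicates 1 or 3 (adjusted p 0.0602 to 0.123, limma), and LGALS2, the other galectin called lower, was not called without vehicle replicates 1 or 2 or vemurafenib replicates 1 or 2 (adjusted p 0.109 to 0.148). In the COG complex, which keeps Golgi enzymes in place, 4 of 7 subunit genes were higher and none was lower (57.1% called). COG6 changed by 0.48, COG4 by 0.33, COG3 by 0.29 and COG1 by 0.28. By unadjusted p under 0.05, 5 of the 7 passed, beside 52.4% of all genes. Without the dimmest 50% of genes, 5 of the 7 were called higher, beside 64.7% of all genes tested called.

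**Figure D3:**
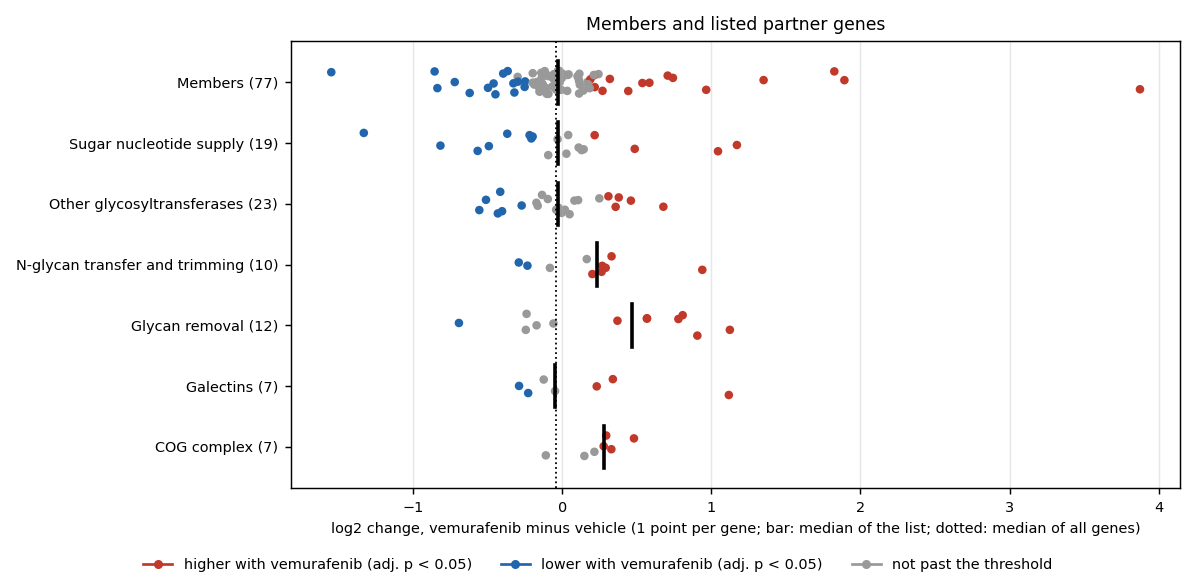
Log2 change, vemurafenib minus vehicle, of the 77 members and of the genes of each partner list, 1 point per gene, coloured by call as higher (red), lower (blue) or not past the threshold (grey); the bar is the median of the list and the dotted line the median of all genes, -0.05. Points of the members lie on both sides with a median of -0.03, and glycan removal has the median farthest from 0, at 0.47.

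Genes of ganglioside synthesis were grouped after the values were seen, so their pattern is a description only. UGCG, a partner gene, which makes glucosylceramide, changed by -0.42, B4GALT6 by -0.84 and ST3GAL5 by -0.45, all called lower, whereas B4GALT5 gave -0.04 without passing. Further along, ST8SIA1 changed by 0.58 and B3GALT4 by 0.44, both called higher. The ST8SIA1 rise rests on 1 of its 2 probe sets, and the other, which was dim, gave -0.02. B4GALNT1, a partner gene that adds GalNAc to gangliosides, changed by -0.27 (adjusted p = 0.02, limma), a call lost without vehicle replicates 1 or 3 or vemurafenib replicate 2 (adjusted p 0.0532 to 0.0807), and ST8SIA5 gave -0.09 without passing. Of the ST6GALNAC genes described earlier as ganglioside enzymes, ST6GALNAC5 changed by -0.37, and ST6GALNAC6 by 0.27 with the unstable call given above. For sialic acid, beside GNE, NANP changed by -0.37, and CMAS and SLC35A1, which activate and carry the sugar, gave -0.03 and 0.14 without passing. NANS changed by -0.22, a call lost without vehicle replicates 1 or 3 or vemurafenib replicates 1 or 2 (adjusted p 0.0627 to 0.125, limma). CTSA, which holds NEU1 in its active complex, changed by 0.57, and NEU3, a sialidase of the cell membrane, gave -0.06 without passing.

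**Figure D4:**
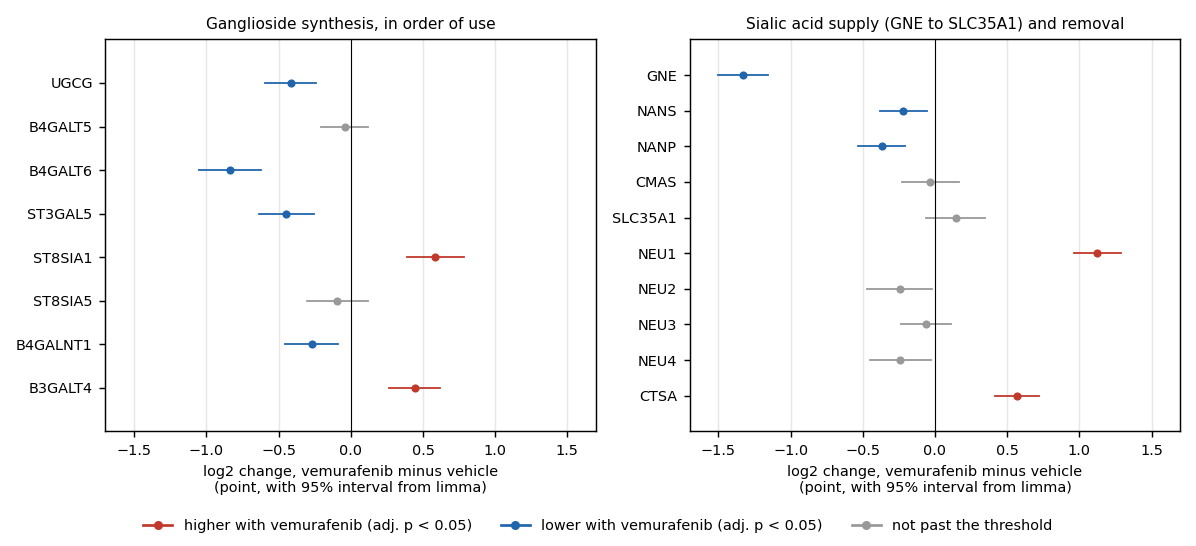
Log2 change, vemurafenib minus vehicle, with 95% interval, for genes of ganglioside synthesis (left, in order of use) and of sialic acid supply and removal (right), coloured by call as higher (red), lower (blue) or not past the threshold (grey). On the left B4GALT6 is lowest at -0.84 and ST8SIA1 highest at 0.58, and on the right GNE is lowest at -1.33 and NEU1 highest at 1.12.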

How the data were processed

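RNA of 6 cultures of A375 cells was measured on single-colour Affymetrix arrays, from 250 ng of total RNA each. The authors deposited 1 log2 value per probe set and array, made with RMA and Partek per the submitters' processing notes, which give no versions. RMA as usually run equalises the arrays, so that a global shift in RNA content would not be seen, and it compresses large folds. The number of arrays limits the precision. Array medians over all probe sets ran from 7.69 to 7.73.

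Gene names came from the platform annotation of 2016. Of 33297 probe sets, 19460 named 1 gene, 1754 named several and 12083 named none. The brightest probe set per gene left 18417 genes, and dim ones were kept. Groups were compared with limma 3.58.1 under R 4.3.3 (lmFit and eBayes on the group alone, unpaired, 2-sided). P-values were adjusted by Benjamini-Hochberg over all genes, with a threshold of 0.05. Values are mean ± SD, and log2 changes are vemurafenib minus vehicle. Every member could be named, with all array values for called members of a log2 change of at least 0.58. From each partner list up to 4 called genes of largest change were named, and others named were chosen after their values were seen. The members and lists were chosen with earlier results of these data known. Promoter windows came from RefSeq (GRCh38.p14) and were matched by symbol.

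The fit was repeated with the replicate number as a block (fixed, then random), with arrays centred on their medians over the genes tested or quantile normalized once more, and without the dimmest 25% or 50% of genes. It was also repeated with probe sets of a gene averaged, with an intensity trend and robust eBayes, at a threshold of 0.01 and without each of the arrays.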

Additional observations from a re-analysis of the deposited data

How the results depend on the processing

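Across the 16 alternatives, 22 of the 30 called members kept their call and 8 lost it at least once, and no called member changed direction. Of the 47 uncalled members, 13 were called in at least 1 alternative. The 13 with a log2 change of at least 0.58 lost no call where they were tested. With arrays centred on their medians over the genes tested, 23 members were lower, and without the dimmest 50% of genes, where 32 members were tested, 9 were higher and 9 were lower. Leaving out 1 array at a time gave 7218 to 8326 called genes, 11 to 16 members higher and 12 to 16 lower, and 26 to 27 partner genes higher and 14 to 19 lower. Besides the genes named above, ST6GALNAC4 was called without vemurafenib replicate 2 (adjusted p = 0.0173, limma) and ST3GAL6 without vehicle replicate 2 (adjusted p = 0.0461). B4GALT3 and GALNT10 were called lower with arrays centred on their medians (adjusted p = 0.033 and 0.0214, limma). GALNT6 was called higher without the dimmest 25% of genes (adjusted p = 0.0425, limma).

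The series' design pairs dishes by stock and day, but only 1 vehicle array carries a batch letter, so the replicate numbers were checked instead. The deviations of same-numbered arrays from their group means correlated at 0.14, -0.18 and -0.25, and for 1 of the 3 numbers both arrays correlated best with each other, so the numbers are not shown to pair the samples. With the replicate number as a block, 12 members were higher and 13 lower (7606 genes called), and with it as a random block 14 were higher and 15 lower. Since these numbers may not be the pairs, the block fits do not test the pairing of the design. GALNT11 was not called in either block fit (adjusted p = 0.0834 fixed and 0.0523 random, limma), and in the fixed one neither were B3GNT7, B4GALT1, GALNT16, MGAT4B, NANS, LGALS1 or LGALS2 (adjusted p 0.0503 to 0.0892). LGALS2 was not called in the random one either. GALNT11 was also lost with the medians of all probe sets (adjusted p = 0.0572). The count of lower sugar nucleotide genes was 5 with the fixed block.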

Other observations

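The nearest protein-coding genes on either side of the 13 members with the largest changes were read from the RefSeq gene order, as values. Of 26 neighbours, 22 were measured, 8 were called (the share over all genes is 45.5%), and 3 of these moved in the direction of the member beside them. KCNT2, a potassium channel gene beside B3GALT2, was higher (7.97 with vemurafenib, 7.02 with vehicle, log2 change 0.94). CDC73, on the other side of B3GALT2, gave 0.09 and did not pass the test (adjusted p = 0.293, limma). On either side of B3GALT5, which was lower at -0.86, SH3BGR and IGSF5 were higher, at 0.33 and 0.39. GPD2, a mitochondrial dehydrogenase gene beside GALNT5, was lower at -0.67 while GALNT5 was higher at 1.35. Beside ST8SIA4, FAM174A gave 0.08 and SLCO4C1 gave 0.19, and neither passed the test.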
